A study of Mus musculus with 22 samples.

Results

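TCRgd+ILTC1 cells, which are innate-like T cells of mouse mammary tumours with a gamma-delta T-cell receptor, were set against TCRab+ILTC1 cells, their counterparts with an alpha-beta receptor. The comparison rests on 4 of the 22 libraries of an RNA-seq series, 2 libraries for each population, which were taken from the sample titles and not from any measured value. ILTC1 stands for type 1 innate-like T cells, lymphocytes that carry NK-cell receptors beside a T-cell receptor. All cells came from female C57BL/6 mice of 20 to 24 weeks that carry the PyMT transgene, a viral oncogene under which mammary tumours form. Tumours were pooled before sorting, and neither the number of animals per library nor the sort gates behind the name ILTC1 are given in the sources used here. Nothing in the labels says that the 2 libraries of a population came from separate mice, so p-values measure only the spread between these libraries. TCRgd+NK1.1- cells and TCRb+CD8a+NK1.1- cells, 2 libraries each, are the conventional gamma-delta and CD8 T cells of such tumours and show what each receptor type goes with outside ILTC1. ILC1l cells (ILC1-like cells) and cNK cells (conventional NK cells), again 2 libraries each, entered the fit so that the spread was estimated over 12 libraries of 6 populations.

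A T cell carries either an alpha-beta receptor, which mostly reads peptides on MHC molecules with the help of CD8 or CD4, or a gamma-delta receptor, which mostly does not. Each receptor chain is built by joining V, J and, for beta and delta, D segments to a constant gene, so the segments in the RNA show which chain genes a population transcribes, although a transcript need not give a receptor. In mice the delta segments lie inside the alpha locus. Gamma-delta T cells with an interleukin 17 programme are common in mouse tissues and tumours, whereas NK1.1, encoded by Klrb1c, marks cells with a type 1, cytotoxic programme.

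Examples of the delta, gamma, alpha and beta segments described below, some that differed between the populations and some that did not, are given first, since their sequence decides which reads can be told apart. They are GENCODE M21 transcripts of the reference C57BL/6 genome (GRCm38), matched by Ensembl identifier and written 5′ to 3′. Capitals in the J segments mark the codons of the phenylalanine-glycine motif shared by J segments, and capitals in the V segments mark the codons for tyrosine, tyrosine and cysteine that close the V region. Trdj1 and Trdj2 are delta J segments and Traj31 is an alpha J segment, all 3 on chromosome 14, and Trbj2-1 is a beta J segment on chromosome 6. The last 60 bases are given for the gamma V segments Tcrg-V4, Tcrg-V6, Tcrg-V1 and Trgv2 on chromosome 13 and for the delta V segments Trdv4 and Trdv5 on chromosome 14.
Trdj1: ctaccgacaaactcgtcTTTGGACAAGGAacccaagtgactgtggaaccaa
Trdj2: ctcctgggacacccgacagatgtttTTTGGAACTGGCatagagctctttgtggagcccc
Traj31: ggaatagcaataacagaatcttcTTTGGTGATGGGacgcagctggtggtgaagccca
Trbj2-1: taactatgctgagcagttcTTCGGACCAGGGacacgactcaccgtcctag
Tcrg-V4: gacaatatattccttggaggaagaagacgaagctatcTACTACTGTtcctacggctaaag
Tcrg-V6: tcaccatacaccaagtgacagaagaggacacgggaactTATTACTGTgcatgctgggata
Tcrg-V1: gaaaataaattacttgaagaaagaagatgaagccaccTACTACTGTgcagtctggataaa
Trgv2: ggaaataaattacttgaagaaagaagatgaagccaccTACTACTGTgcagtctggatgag
Trdv4: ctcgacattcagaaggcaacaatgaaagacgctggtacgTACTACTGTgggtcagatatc
Trdv5: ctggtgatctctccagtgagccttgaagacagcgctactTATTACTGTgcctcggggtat
Over these 60 bases Tcrg-V1 and Tcrg-V3 are identical, and Trgv2 differs from both at 3 positions. Position by position, Tcrg-V4 and Tcrg-V1 share 43 of the 60 bases. Counts of Tcrg-V1, Tcrg-V3 and Trgv2 may therefore have been split or lost among near-identical copies. The same may apply to the constant genes Trbc1 and Trbc2, to duplicated Trav segments and to the Klra and granzyme families. The sequences of those genes were not compared here.

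The deposited counts summed to 13291335 and 12766488 in the TCRgd+ILTC1 libraries and to 20602715 and 13226976 in the TCRab+ILTC1 libraries. Genes with at least 1 count numbered 16366 and 14304 in the TCRgd+ILTC1 libraries and 16271 and 12866 in the TCRab+ILTC1 libraries. TCRab+ILTC1 replicate 2 thus had the fewest of the 22 libraries. Klrb1c was at 1177 and 1472 CPM in TCRgd+ILTC1 cells and at 1000 and 1171 CPM in TCRab+ILTC1 cells, against 5.95 to 87.6 CPM in the 4 NK1.1- libraries, where CPM is the count scaled to a common library size after TMM scaling. The median absolute log2 difference between libraries, over genes with 20 CPM or more on average, was 0.317 between the TCRgd+ILTC1 replicates and 0.563 between the TCRab+ILTC1 replicates. Across the 4 pairs of a TCRgd+ILTC1 and a TCRab+ILTC1 library it was 0.244 to 0.538. The pairs with TCRab+ILTC1 replicate 1 were at 0.244 and 0.388, and those with TCRab+ILTC1 replicate 2 at 0.538 and 0.495. None of these pairs lay farther apart than the TCRab+ILTC1 replicates. That was not particular to ILTC1 cells. Between TCRgd+ILTC1 and other libraries the range was 0.346 to 0.44 for cNK, 0.362 to 0.512 for ILC1l and 0.315 to 0.515 for TCRb+CD8a+NK1.1- cells. For TCRgd+NK1.1- cells it was 0.553 to 0.68. The TCRab+ILTC1 replicates differed in macrophage and antigen-presentation genes: 22 myeloid markers summed to 2613 CPM in replicate 1 and to 478 CPM in replicate 2, against 663 and 683 CPM in TCRgd+ILTC1 cells and 20610 and 51490 CPM in TCRgd+NK1.1- cells. The invariant chain gene Cd74, the most abundant of them, was at 168 and 142 CPM in TCRgd+ILTC1 cells and at 1243 and 114 CPM in TCRab+ILTC1 cells.

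Most T-cell receptor genes and both CD8 genes separated the libraries of the ILTC1 populations. Among other lists, the libraries overlapped for 17 of 30 NK receptor genes, 13 of 22 cytotoxicity genes and 15 of 20 tissue residency genes. Over all 16828 tested genes the share without overlap was 26.9%. Of those genes, 1439 had no count in the 4 ILTC1 libraries and so could not separate. At 20 CPM or more in either population were 27 of the 30 NK receptor and 16 of the 22 cytotoxicity genes. A share among genes of like expression was not computed, here or for the other lists below. No gene of 16828 tested (0% called) reached an adjusted p of 0.05 by the quasi-likelihood test of edgeR (Benjamini-Hochberg adjustment over those genes), and the smallest adjusted p was 0.781. At an unadjusted p under 0.05 there were 570 genes (3.39%), 341 higher (2.03%) and 229 lower (1.36%) in TCRgd+ILTC1 cells. The libraries of the 2 populations did not overlap for 26.9% of genes, 14.8% with both TCRgd+ILTC1 libraries higher and 12.1% with both lower. Of 7247 genes with 20 CPM or more in either population, 1689 had a 95% interval of the fold change that lay within 1 log2 unit of 0 (23.3%). For the other genes the intervals reached beyond 1 log2 unit, so for most genes a 2-fold difference was not bounded by these libraries.

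The count of calls depended on the test and on 1 library. DESeq2 called 65 genes (0.386%), 43 higher and 22 lower, and the 65 included 12 T-cell receptor or CD8 genes with a symbol. Of these 65 calls, 25 had no count in TCRab+ILTC1 replicate 2, and 0 were myeloid markers. Without a filter on low counts edgeR called 154 genes, 65 higher and 89 lower, of which 80 had no count in that library and 11 were myeloid markers. Without TCRab+ILTC1 replicate 1, the replicate with the higher myeloid sum, it called 297 genes, 287 higher and 10 lower, and 201 of the 297 had no count in the TCRab+ILTC1 library that remained. Without any other of the 4 ILTC1 libraries it called 0 genes.

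**Figure D1:**
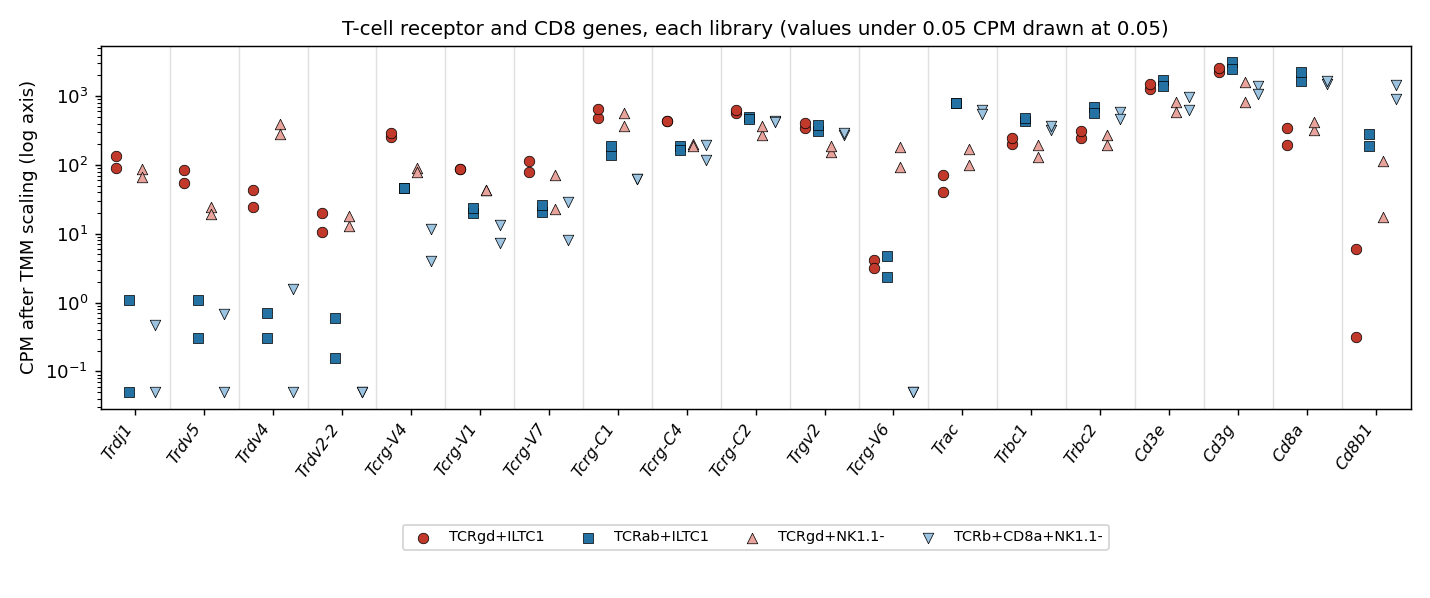
T-cell receptor, CD3 and CD8 genes on the horizontal axis and CPM after TMM scaling on a logarithmic vertical axis, with 1 point per library for 4 populations; values under 0.05 CPM are drawn at 0.05. Delta segments and Tcrg-V4 lie higher in both TCRgd+ILTC1 libraries (red circles) than in both TCRab+ILTC1 libraries (blue squares), Trac, Cd8a and Cd8b1 lie lower, and Tcrg-C2, Trgv2, Cd3e and Cd3g lie near each other.

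Receptor genes came first in size, and since the cells are named by their receptor they check the labels rather than test them. The delta segments were far higher on the gamma-delta side. Over the 7 Trdv and Trdj segments measured, the sum was 193 and 299 CPM in TCRgd+ILTC1 cells and 5.43 and 3.55 CPM in TCRab+ILTC1 cells, and each of the 7 had both TCRgd+ILTC1 libraries above both TCRab+ILTC1 libraries. The same sum was 551 and 426 CPM in TCRgd+NK1.1- cells, 45.2 and 51.3 CPM in ILC1l cells and 66.8 and 70.7 CPM in cNK cells. In these sorted pools, fewer cells with a transcript and less transcript per cell cannot be told apart. The delta constant gene was not analysed here.

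Trdj1, the delta J segment printed above, was at 90.1 and 133 CPM in TCRgd+ILTC1 cells and at 1.11 and 0 CPM in TCRab+ILTC1 cells, and its fitted log2 fold change was 7.54 ± 1.37 (SE). Trdv5 was at 54.3 and 84.0 CPM against 0.302 and 1.08 CPM in TCRab+ILTC1 cells, a log2 fold change of 6.66 ± 1.37. Trdv4 was at 24.3 and 43.4 CPM in TCRgd+ILTC1 cells and at 0.302 and 0.695 CPM in TCRab+ILTC1 cells, a log2 fold change of 6.12 ± 1.00. The groups were far apart for all 3 delta segments. Trdv2-2 was at 10.6 and 20.1 CPM and at 0.604 and 0.154 CPM in TCRab+ILTC1 cells (log2 fold change 5.28 ± 1.05). Trdj2 had 9 and 27 counts in TCRgd+ILTC1 cells and 0 in both TCRab+ILTC1 libraries, at least 15.3-fold higher against a floor of 3 counts over those 2 libraries. Trav15-2-dv6-2, a segment that can join the alpha or the delta chain, was at 71.9 and 34.1 CPM in TCRgd+ILTC1 cells and at 0.604 and 0 CPM in TCRab+ILTC1 cells (log2 fold change 7.33 ± 1.70). With 1 ILTC1 library left out at a time, the log2 fold change ranged from 6.65 to 13.43 for Trdj1, from 6.43 to 12.36 for Trav15-2-dv6-2, from 5.99 to 7.80 for Trdv5 and from 5.59 to 6.76 for Trdv4, so the direction held and the size did not.

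The delta segments stood in another order in NK1.1- gamma-delta cells. Trdv4 reached 395 and 284 CPM in TCRgd+NK1.1- cells, above both TCRgd+ILTC1 libraries, whereas Trdv5 was at 24.7 and 19.5 CPM there, below both. Trdj1 was at 86.8 and 67.9 CPM in TCRgd+NK1.1- cells, below both TCRgd+ILTC1 libraries. These are values of 4 libraries set side by side, and the differences between those populations were not fitted.

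Gamma genes were split between segments that went with the receptor and segments present in both populations. Tcrg-V4 was at 257 and 292 CPM in TCRgd+ILTC1 cells and at 45.6 and 46.5 CPM in TCRab+ILTC1 cells, a log2 fold change of 2.57 ± 0.69. The constant gene Tcrg-C1 was at 479 and 661 CPM against 139 and 188 CPM in TCRab+ILTC1 cells (log2 fold change 1.80 ± 0.37). Both genes had TCRab+ILTC1 libraries well above 0. Tcrg-C4 was at 432 and 431 CPM in TCRgd+ILTC1 cells and at 186 and 163 CPM in TCRab+ILTC1 cells (log2 fold change 1.31 ± 0.30). Tcrg-V1, with the caveat on its near-identical copies, was at 86.8 and 87.2 CPM and at 20.0 and 23.3 CPM in TCRab+ILTC1 cells (log2 fold change 2.01 ± 0.41). Tcrg-V7 was at 78.7 and 114 CPM in TCRgd+ILTC1 cells and at 20.5 and 25.9 CPM in TCRab+ILTC1 cells (log2 fold change 2.05 ± 0.73).

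The constant gene Tcrg-C2 differed by less, at 561 and 625 CPM in TCRgd+ILTC1 cells and at 491 and 459 CPM in TCRab+ILTC1 cells, with a log2 fold change of 0.32 ± 0.57 (95% interval -0.95 to 1.59). Tcrg-V3 was at 68.2 and 53.2 CPM in TCRgd+ILTC1 cells and at 35.7 and 44.7 CPM in TCRab+ILTC1 cells. Trgv2 was at 350 and 413 CPM against 314 and 385 CPM in TCRab+ILTC1 cells, and the libraries overlapped. Tcrg-C2 was thus read in cells sorted for an alpha-beta receptor, including the TCRb+CD8a+NK1.1- cells, where Tcrg-C2 was at 438 and 420 CPM. Over all 18 gamma-delta receptor genes measured, 15 had both TCRgd+ILTC1 libraries above both TCRab+ILTC1 libraries and 0 had both below, beside 14.8% and 12.1% of all genes. Their sum was 2538 and 3001 CPM in TCRgd+ILTC1 cells and 1278 and 1373 CPM in TCRab+ILTC1 cells. Tcrg-V6 stood apart, at 4.14 and 3.13 CPM in TCRgd+ILTC1 cells and at 2.36 and 4.71 CPM in TCRab+ILTC1 cells, against 181 and 92.7 CPM in TCRgd+NK1.1- cells.

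Alpha and beta genes ran the other way. Trac, the alpha constant gene, was at 70.4 and 40.6 CPM in TCRgd+ILTC1 cells and at 791 and 804 CPM in TCRab+ILTC1 cells, a log2 fold change of -3.85 ± 0.71 (14.4-fold). The beta constant genes differed less. Trbc1 was at 202 and 249 CPM against 432 and 479 CPM in TCRab+ILTC1 cells (log2 fold change -1.02 ± 0.29). Trbc2 was at 248 and 308 CPM in TCRgd+ILTC1 cells and at 706 and 566 CPM in TCRab+ILTC1 cells (log2 fold change -1.19 ± 0.32). Beta constant transcripts were thus present in TCRgd+ILTC1 cells at a 2.02-fold to 2.29-fold lower level.

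Rearranging beta segments were scarcer still: the 34 Trbv and Trbj segments summed to 134 and 189 CPM in TCRgd+ILTC1 cells and to 810 and 766 CPM in TCRab+ILTC1 cells. Trbv16 was at 5.49 and 5.71 CPM against 73.0 and 104 CPM in TCRab+ILTC1 cells (log2 fold change -3.98 ± 1.44). Trbv3 was at 7.29 and 11.6 CPM in TCRgd+ILTC1 cells and at 81.6 and 125 CPM in TCRab+ILTC1 cells (log2 fold change -3.45 ± 1.13). Both V segments separated the groups without overlap, as did Trbv1 (-3.41 ± 1.19) and Trbv13-3 (-3.28 ± 1.07). With 1 ILTC1 library left out at a time, the range was -4.81 to -2.71 for Trbv1 and -3.73 to -2.61 for Trbv13-3. Trbj2-1 was at 7.07 and 7.36 CPM in TCRgd+ILTC1 cells and at 36.9 and 19.8 CPM in TCRab+ILTC1 cells (log2 fold change -1.98 ± 0.63).

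The 89 Trav and Traj segments without a delta name summed to 37.7 and 73.4 CPM in TCRgd+ILTC1 cells and to 165 and 127 CPM in TCRab+ILTC1 cells. Of these 89, 22 had a count in TCRgd+ILTC1 cells and 70 in TCRab+ILTC1 cells. Traj31 had 0 counts in both TCRgd+ILTC1 libraries and 90 and 63 counts in the TCRab+ILTC1 libraries, 4.53 and 4.86 CPM. Against a floor of 3 counts over the 2 TCRgd+ILTC1 libraries, that is at least 40.8-fold lower in TCRgd+ILTC1 cells. Of the 89, 47 had both TCRgd+ILTC1 libraries below both TCRab+ILTC1 libraries and 4 had both above. Trav13d-1, among the 4, was at 18.7 and 42.4 CPM in TCRgd+ILTC1 cells and at 2.82 and 6.10 CPM in TCRab+ILTC1 cells. Its log2 fold change was 2.78 ± 1.27, and it made up a large part of the TCRgd+ILTC1 sums of 37.7 and 73.4 CPM. Of all 129 alpha-beta receptor genes measured, 76 had both TCRgd+ILTC1 libraries below both TCRab+ILTC1 libraries and 6 had both above, beside 12.1% and 14.8% of all genes.

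The invariant CD3 chains, which both receptor types need, were at similar levels with wide intervals. Cd3e was at 1264 and 1484 CPM in TCRgd+ILTC1 cells and at 1713 and 1388 CPM in TCRab+ILTC1 cells, with a log2 fold change of -0.17 ± 0.82 (95% interval -2.0 to 1.65). Cd3g was at 2228 and 2546 CPM against 3096 and 2460 CPM in TCRab+ILTC1 cells (-0.22 ± 0.50), and Cd247, the zeta chain gene, overlapped as well (0.13 ± 0.27). The libraries overlapped for these 3 chains and not for Cd3d, which was at 525 and 602 CPM in TCRgd+ILTC1 cells and at 824 and 689 CPM in TCRab+ILTC1 cells (-0.43 ± 0.54). Of the 14 CD3 and coreceptor genes, 6 had both TCRgd+ILTC1 libraries below both TCRab+ILTC1 libraries and 0 had both above, beside 12.1% and 14.8% of all genes. Among the 6 was Cd6, a T-cell surface receptor gene, at 118 and 126 CPM in TCRgd+ILTC1 cells and at 202 and 372 CPM in TCRab+ILTC1 cells (-1.23 ± 0.60).

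The CD8 genes were both lower on the gamma-delta side, Cd8b1 more than Cd8a. Cd8b1, the beta chain of the CD8 heterodimer of conventional CD8 T cells, was at 6.01 and 0.313 CPM in TCRgd+ILTC1 cells and at 286 and 190 CPM in TCRab+ILTC1 cells, a log2 fold change of -6.22 ± 1.44 (74.6-fold). Its count in TCRgd+ILTC1 replicate 2 was 4, and the log2 fold change was -9.53 without TCRgd+ILTC1 replicate 1 and -5.3 without replicate 2. Cd8a, the chain that also forms a homodimer on innate-like lymphocytes, was at 198 and 341 CPM against 1668 and 2281 CPM in TCRab+ILTC1 cells, a log2 fold change of -2.87 ± 0.84 (7.33-fold). The groups did not overlap for either chain. In the NK1.1- cells, Cd8b1 was at 116 and 17.3 CPM in TCRgd+NK1.1- cells and at 1433 and 919 CPM in TCRb+CD8a+NK1.1- cells. Cd4, the other coreceptor gene, was at 1.35 and 0 CPM in TCRgd+ILTC1 cells and at 1.16 and 0 CPM in TCRab+ILTC1 cells. The costimulatory receptor gene Cd28 overlapped, at 59.5 and 26.5 CPM in TCRgd+ILTC1 cells and at 46.9 and 9.72 CPM in TCRab+ILTC1 cells.

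**Figure D2:**
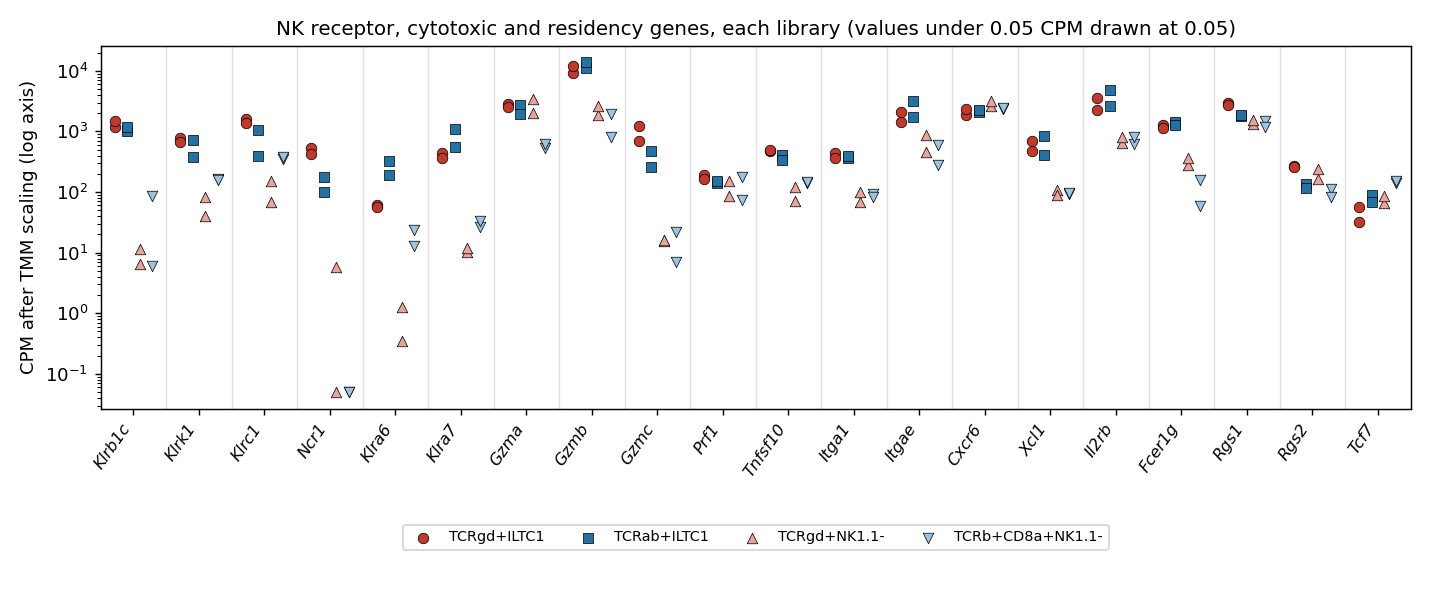
NK receptor, cytotoxic, residency and related genes on the horizontal axis and CPM after TMM scaling on a logarithmic vertical axis, with 1 point per library for 4 populations; values under 0.05 CPM are drawn at 0.05. For Klrb1c, Gzmb, Itga1, Itgae and Il2rb the TCRgd+ILTC1 libraries (red circles) and the TCRab+ILTC1 libraries (blue squares) lie close together and above the 4 NK1.1- libraries, while Ncr1, Gzmc and Klra6 separate the ILTC1 populations.

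NK receptor genes were read in both populations, with some members at unequal levels. Their 30 genes summed to 11020 and 10740 CPM in TCRgd+ILTC1 cells and to 10730 and 8715 CPM in TCRab+ILTC1 cells, against 1462 to 2503 CPM in the 4 NK1.1- libraries. Of the 30, 10 had both TCRgd+ILTC1 libraries above both TCRab+ILTC1 libraries and 3 had both below, beside 14.8% and 12.1% of all genes, and their median log2 fold change was 0.23, beside 0.0 over all tested genes with a count.

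Ncr1, which encodes the activating receptor NKp46, was at 534 and 418 CPM in TCRgd+ILTC1 cells and at 174 and 101 CPM in TCRab+ILTC1 cells. The libraries did not overlap, and the log2 fold change was 1.79 ± 0.99 with a 95% interval of -0.45 to 4.04. Both NK1.1- populations were at 0 to 5.69 CPM. Klrc1, encoding the inhibitory receptor NKG2A, was at 1611 and 1359 CPM in TCRgd+ILTC1 cells and at 1041 and 396 CPM in TCRab+ILTC1 cells (log2 fold change 1.05 ± 0.46). For Klrc1 this was 1.91 without TCRab+ILTC1 replicate 1 and 0.51 without TCRab+ILTC1 replicate 2. Klrb1b, another NKR-P1 receptor gene, was at 75.3 and 91.5 CPM against 28.4 and 36.3 CPM in TCRab+ILTC1 cells (log2 fold change 1.37 ± 0.71).

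The fitted log2 fold changes of Ly49 genes ran from -2.11 for Klra6 to 3.14 for Klra8. Klra6 and Klra7, described here without overlap, were lower in TCRgd+ILTC1 cells. Other members ran both ways, with log2 fold changes of 2.84 for Klra4, 0.07 for Klra3, -0.37 for Klra1 and -0.46 for Klra9. Klra6 was at 62.2 and 56.7 CPM in TCRgd+ILTC1 cells and at 320 and 194 CPM in TCRab+ILTC1 cells, a log2 fold change of -2.11 ± 0.59 (4.33-fold). Klra7, which encodes the inhibitory receptor Ly49G, was at 444 and 364 CPM against 1093 and 554 CPM in TCRab+ILTC1 cells (log2 fold change -1.03 ± 0.35). Both Klra genes were lower in each TCRgd+ILTC1 library than in each TCRab+ILTC1 library. Klra8, which encodes the activating receptor Ly49H, was at 40.9 and 2.51 CPM in TCRgd+ILTC1 cells and at 4.58 and 0.154 CPM in TCRab+ILTC1 cells, so that the replicate 1 library was the higher one in each population and the groups overlapped. Klra5 overlapped, at 466 and 535 CPM in TCRgd+ILTC1 cells and at 436 and 556 CPM in TCRab+ILTC1 cells.

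Among the adaptors through which NK receptors and the T-cell receptor signal, Fcer1g and Tyrobp were at similar levels. Fcer1g was at 1263 and 1128 CPM in TCRgd+ILTC1 cells and at 1411 and 1288 CPM in TCRab+ILTC1 cells (log2 fold change -0.18 ± 0.40). Tyrobp, which encodes DAP12, was at 490 and 486 CPM against 469 and 516 CPM in TCRab+ILTC1 cells (log2 fold change -0.01 ± 0.35). Zap70, the kinase gene of the T-cell receptor, was at 358 and 381 CPM in TCRgd+ILTC1 cells and at 429 and 677 CPM in TCRab+ILTC1 cells, without overlap (log2 fold change -0.58 ± 0.25). Its relative Syk was at 15.7 and 9.63 CPM in TCRgd+ILTC1 cells and at 6.04 and 27.2 CPM in TCRab+ILTC1 cells, with overlap. Of the 24 adaptor and proximal signalling genes tested, 8 of the 22 with 20 CPM or more had a 95% interval within 1 log2 unit of 0, beside 23.3% of all such genes. Without overlap, 1 of the 24 was higher and 3 were lower in TCRgd+ILTC1 cells, beside 14.8% and 12.1% of all genes. The lowest log2 fold change of the list was -0.67, for Hcst.

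Cytotoxic effector genes were high in both populations. Gzmb, encoding granzyme B, was at 9140 and 11840 CPM in TCRgd+ILTC1 cells and at 11200 and 13770 CPM in TCRab+ILTC1 cells, with a log2 fold change of -0.25 ± 0.39. Gzma was at 2832 and 2521 CPM against 2776 and 1908 CPM in TCRab+ILTC1 cells (0.19 ± 0.39). Prf1, the perforin gene, was at 192 and 161 CPM in TCRgd+ILTC1 cells and at 142 and 154 CPM in TCRab+ILTC1 cells (0.26 ± 0.39). The 95% interval of the log2 fold change ran from -1.12 to 0.62 for Gzmb, from -0.69 to 1.07 for Gzma and from -0.62 to 1.14 for Prf1, so all 3 included 0. Tnfsf10, encoding the death ligand TRAIL, was at 476 and 492 CPM in TCRgd+ILTC1 cells and at 405 and 332 CPM in TCRab+ILTC1 cells (0.39 ± 0.28).

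Several granzymes related to granzyme C were higher in both TCRgd+ILTC1 libraries. Gzmc was at 1228 and 708 CPM in TCRgd+ILTC1 cells and at 470 and 256 CPM in TCRab+ILTC1 cells, a log2 fold change of 1.41 ± 0.48 (2.67-fold), against 7.11 to 22.01 CPM in the NK1.1- libraries. Gzmf was at 38.6 and 17.5 CPM in TCRgd+ILTC1 cells and at 8.30 and 2.47 CPM in TCRab+ILTC1 cells (log2 fold change 2.38 ± 1.39). Gzmd had 50 and 11 counts in the TCRgd+ILTC1 libraries and 0 in both TCRab+ILTC1 libraries, at least 25.3-fold higher against a floor of 3 counts over the 2 TCRab+ILTC1 libraries. Serpinb6b, a granzyme-inhibiting serpin gene, was at 369 and 478 CPM against 252 and 264 CPM in TCRab+ILTC1 cells (log2 fold change 0.71 ± 0.28). All 4 genes had TCRgd+ILTC1 libraries above the TCRab+ILTC1 libraries. The related Gzme and Gzmg overlapped, with 28 and 1 counts of Gzme in TCRgd+ILTC1 cells and 3 and 1 in TCRab+ILTC1 cells, and 3 and 0 counts of Gzmg in TCRgd+ILTC1 cells and 0 and 11 in TCRab+ILTC1 cells. Of the 22 cytotoxicity genes, 9 had this order and 0 the opposite one, beside 14.8% and 12.1% of all genes, and their median log2 fold change was 0.2.

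Tissue residency genes overlapped for 15 of 20 members, with 4 higher and 1 lower without overlap, which is near the 14.8% and 12.1% of all genes. Itgae, encoding CD103, was at 1450 and 2057 CPM in TCRgd+ILTC1 cells and at 1718 and 3165 CPM in TCRab+ILTC1 cells. Itga1, encoding CD49a, was at 448 and 368 CPM against 364 and 399 CPM in TCRab+ILTC1 cells, with a 95% interval of the log2 fold change of -0.66 to 0.85. Cxcr6, the chemokine receptor gene of tissue lymphocytes, was at 1846 and 2309 CPM in TCRgd+ILTC1 cells and at 2070 and 2298 CPM in TCRab+ILTC1 cells. The libraries overlapped for all 3, and also for Xcl1 and for Zfp683, which encodes the residency factor Hobit. Of 19 residency genes with 20 CPM or more, 9 had a 95% interval within 1 log2 unit of 0, beside 23.3% of all such genes.

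Rgs1 and Rgs2, which dampen G-protein signalling, were 2 of the 4 that were higher without overlap. Rgs2 was at 267 and 258 CPM in TCRgd+ILTC1 cells and at 138 and 115 CPM in TCRab+ILTC1 cells, a log2 fold change of 1.05 ± 0.28. Rgs1 was at 2937 and 2763 CPM against 1819 and 1890 CPM in TCRab+ILTC1 cells (0.62 ± 0.26). Neither gene's libraries overlapped. Itgb7, the integrin chain that pairs with CD103, was at 270 and 206 CPM in TCRgd+ILTC1 cells and at 332 and 460 CPM in TCRab+ILTC1 cells (log2 fold change -0.73 ± 0.27).

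Among genes of exit, recirculation and T-cell memory, Tcf7, which encodes the memory factor TCF1, was at 56.5 and 32.4 CPM in TCRgd+ILTC1 cells and at 90.4 and 69.7 CPM in TCRab+ILTC1 cells (log2 fold change -0.85 ± 0.32). Lef1, its partner, was at 14.3 and 17.2 CPM against 35.5 and 27.3 CPM in TCRab+ILTC1 cells (-1.0 ± 0.46). Neither gene's libraries overlapped. S1pr1, the exit receptor gene, overlapped at 23.0 and 27.5 CPM in TCRgd+ILTC1 cells and at 27.5 and 24.5 CPM in TCRab+ILTC1 cells. S1pr5 had 24 and 16 counts in TCRgd+ILTC1 cells and 4 and 0 in TCRab+ILTC1 cells, and As3mt, whose place in the list rests on mature NK cells, had a log2 fold change of -1.46 ± 0.55 at 10.7 CPM or less, or -2.06 to -0.69 with 1 ILTC1 library left out.

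Of 17 type 1 genes, 10 overlapped, 5 were higher and 2 lower without overlap, beside 14.8% and 12.1% of all genes, and their median log2 fold change was 0.26. Tbx21, encoding the type 1 factor T-bet, was at 75.6 and 54.5 CPM in TCRgd+ILTC1 cells and at 46.9 and 56.0 CPM in TCRab+ILTC1 cells. Ifng, the interferon gamma gene, was at 60.7 and 43.2 CPM against 63.2 and 77.3 CPM in TCRab+ILTC1 cells, without overlap (log2 fold change -0.43 ± 0.35). Eomes had 185 and 0 counts in TCRgd+ILTC1 cells and 202 and 0 counts in TCRab+ILTC1 cells, so the spread lay between replicates and not between populations. Il18rap, a chain of the interleukin 18 receptor, was at 91.2 and 67.7 CPM in TCRgd+ILTC1 cells and at 42.6 and 50.9 CPM in TCRab+ILTC1 cells (log2 fold change 0.76 ± 0.29). Id2, a factor gene of innate lymphocytes, was at 1330 and 1055 CPM against 914 and 591 CPM in TCRab+ILTC1 cells (0.66 ± 0.29). For Il18rap and Id2 the groups did not overlap.

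Cytokine receptor genes overlapped for 14 of 18 members, and chemokine genes and their receptors for 15 of 21, so that the share without overlap was near the 26.9% of all genes. Il2rb, the receptor chain shared by interleukins 2 and 15, was at 2272 and 3517 CPM in TCRgd+ILTC1 cells and at 2623 and 4745 CPM in TCRab+ILTC1 cells, with replicate 2 the higher in each population. Il7r was at 23.0 and 56.3 CPM against 29.9 and 7.56 CPM in TCRab+ILTC1 cells. Ccr2 was at 222 and 36.9 CPM in TCRgd+ILTC1 cells and at 44.0 and 47.2 CPM in TCRab+ILTC1 cells, so its fitted log2 fold change of 1.51 ± 0.63 came from TCRgd+ILTC1 replicate 1. Without that library it was -0.31. Pdcd1, encoding the inhibitory receptor PD-1, was nearly equal, at 93.2 and 93.5 CPM in TCRgd+ILTC1 cells and at 90.0 and 77.4 CPM in TCRab+ILTC1 cells, against 458 to 777 CPM in the NK1.1- libraries.

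**Figure D3:**
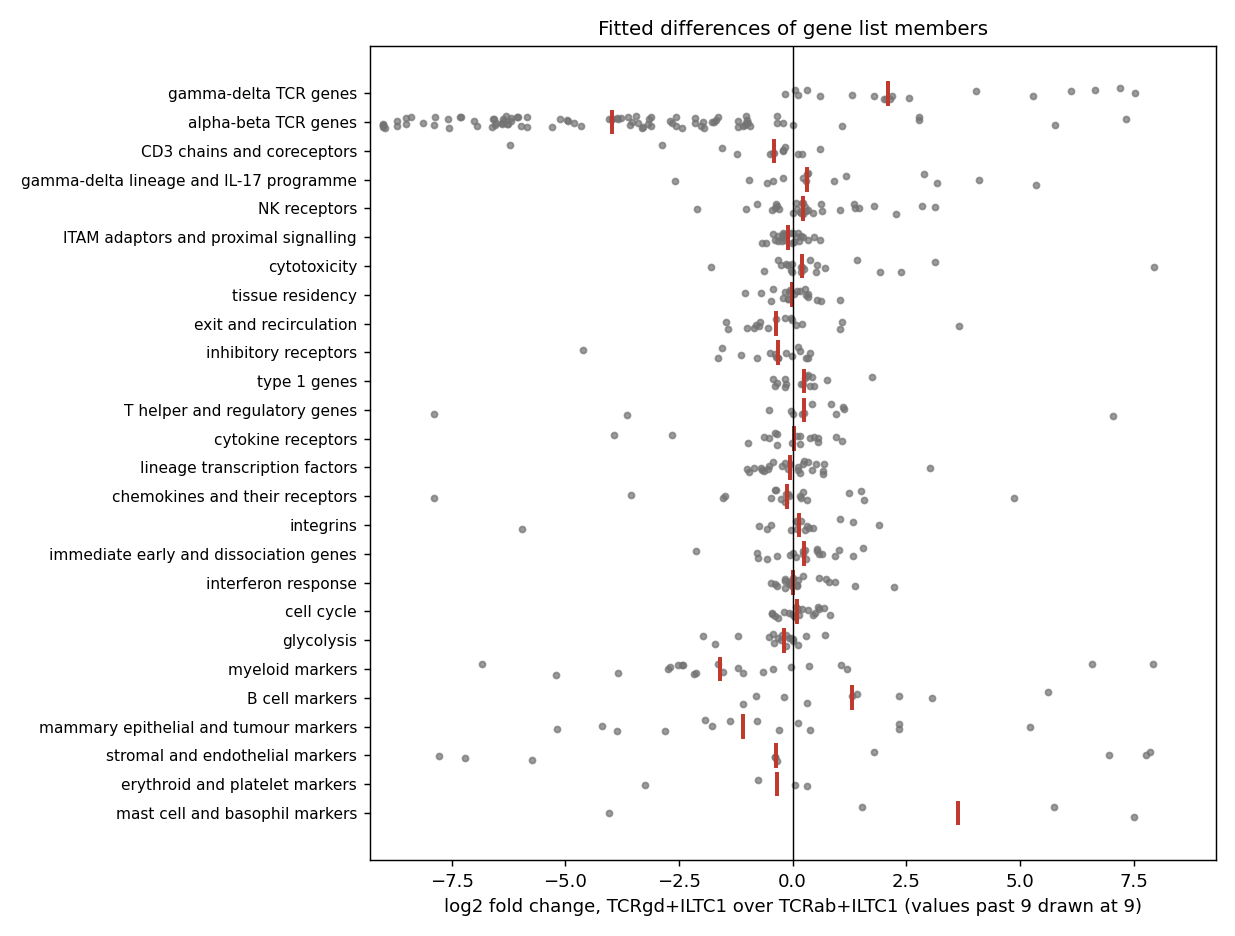
Fitted log2 fold changes, TCRgd+ILTC1 over TCRab+ILTC1, of the tested members of 26 gene lists that had a count in the 4 libraries; each grey point is a gene, and the red bar is the median of its list. The receptor lists have medians of 2.09 for 18 gamma-delta and -3.97 for 93 alpha-beta genes, the programme lists lie within 0.41 of 0, and the marker lists of other cell types at the bottom spread widely around their medians.

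No member of any of the 26 gene lists was called by edgeR. The medians of the interferon response genes (0.01), cell cycle genes (0.1), cytokine receptors (0.04), lineage transcription factors (-0.05) and glycolysis genes (-0.19) lay within 0.2 log2 units of 0. Among immediate early genes, 5 of 20 had both TCRgd+ILTC1 libraries above both TCRab+ILTC1 libraries and 3 had both below, beside 14.8% and 12.1% of all genes. Nr4a2, which is induced by receptor signals, was at 93.7 and 71.6 CPM in TCRgd+ILTC1 cells and at 40.0 and 40.8 CPM in TCRab+ILTC1 cells (log2 fold change 1.03 ± 0.30). Btg2 was at 655 and 679 CPM against 415 and 434 CPM in TCRab+ILTC1 cells (0.65 ± 0.20), and Egr2 at 38.1 and 63.5 CPM against 29.4 and 11.3 CPM in TCRab+ILTC1 cells (1.32 ± 0.59, or 0.79 to 2.18 with 1 ILTC1 library left out). These 3 separated the groups. Other immediate early genes had negative log2 fold changes, among them Nr4a3 (-2.12), Ier2 (-0.78), Jund (-0.75) and Junb (-0.57), and the median of the list was 0.25. Pfkl, a glycolysis enzyme gene, was at 38.0 and 64.6 CPM in TCRgd+ILTC1 cells and at 80.5 and 154 CPM in TCRab+ILTC1 cells (-1.19 ± 0.39).

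Markers of other cell types were low in the 4 libraries, apart from the myeloid genes, of which 21 of 22 had a count in each population, and a B-cell list of 11 genes at 720 and 945 CPM in TCRgd+ILTC1 cells and at 736 and 1169 CPM in TCRab+ILTC1 cells. The epithelial list of 18 genes summed to 47.1 and 54.7 CPM in TCRgd+ILTC1 cells and to 68.1 and 142 CPM in TCRab+ILTC1 cells, with a count for 12 of the 18 in each. The keratin gene Krt19 had 8 and 0 counts against 192 and 171 counts in TCRab+ILTC1 cells. Csn3, a milk protein gene, had 17 and 0 counts in TCRgd+ILTC1 cells and 240 and 91 counts in TCRab+ILTC1 cells. Pecam1, known from endothelium and leukocytes, was at 36.3 and 25.7 CPM in TCRgd+ILTC1 cells and at 8.85 and 8.88 CPM in TCRab+ILTC1 cells (log2 fold change 1.80 ± 0.50), beside a sum of the 13 stromal genes of 40.4 and 44.3 CPM against 30.3 and 10.6 CPM. The mast cell and basophil list held Kit, at 33.5 and 40.6 CPM in TCRgd+ILTC1 cells and at 20.3 and 5.17 CPM in TCRab+ILTC1 cells, and Hdc, with 6 and 7 counts in TCRgd+ILTC1 cells and 0 in TCRab+ILTC1 cells. The part of other cell types in the results was not tested.

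By the rule for the largest differences that were not called, 239 genes with 20 CPM or more, no overlap and an unadjusted p under 0.05 were ranked, 159 higher and 80 lower. The 10 highest were Trdj1, Trav15-2-dv6-2, Trdv5 and Trdv4, 5 entries that are predicted genes or carry no symbol, and Erc1, a gene of cell scaffold and vesicle traffic. One of the entries without a symbol, ENSMUSG00000076856, was at 145 and 175 CPM in TCRgd+ILTC1 cells and at 2.16 and 3.55 CPM in TCRab+ILTC1 cells. Erc1 was at 8.495 and 47.8 CPM in TCRgd+ILTC1 cells and at 2.31 and 0.926 CPM in TCRab+ILTC1 cells (log2 fold change 4.10 ± 1.01, or 2.38 to 4.92 with 1 ILTC1 library left out). The 10 lowest held Cd8b1, Cd8a, Trac and 4 Trbv segments, and 3 other genes. For 2 of those 3 a single TCRab+ILTC1 library was high: Uhrf1bp1 was at 2.18 and 0.470 CPM in TCRgd+ILTC1 cells and at 3.12 and 60.9 CPM in TCRab+ILTC1 cells, and Rap2a was at 5.56 and 0.0783 CPM against 6.04 and 62.9 CPM in TCRab+ILTC1 cells. Lgmn, a lysosomal protease gene of macrophages, was at 6.69 and 1.096 CPM in TCRgd+ILTC1 cells and at 45.0 and 12.7 CPM in TCRab+ILTC1 cells, with the higher value in the replicate that had more myeloid marker counts.

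**Figure D4:**
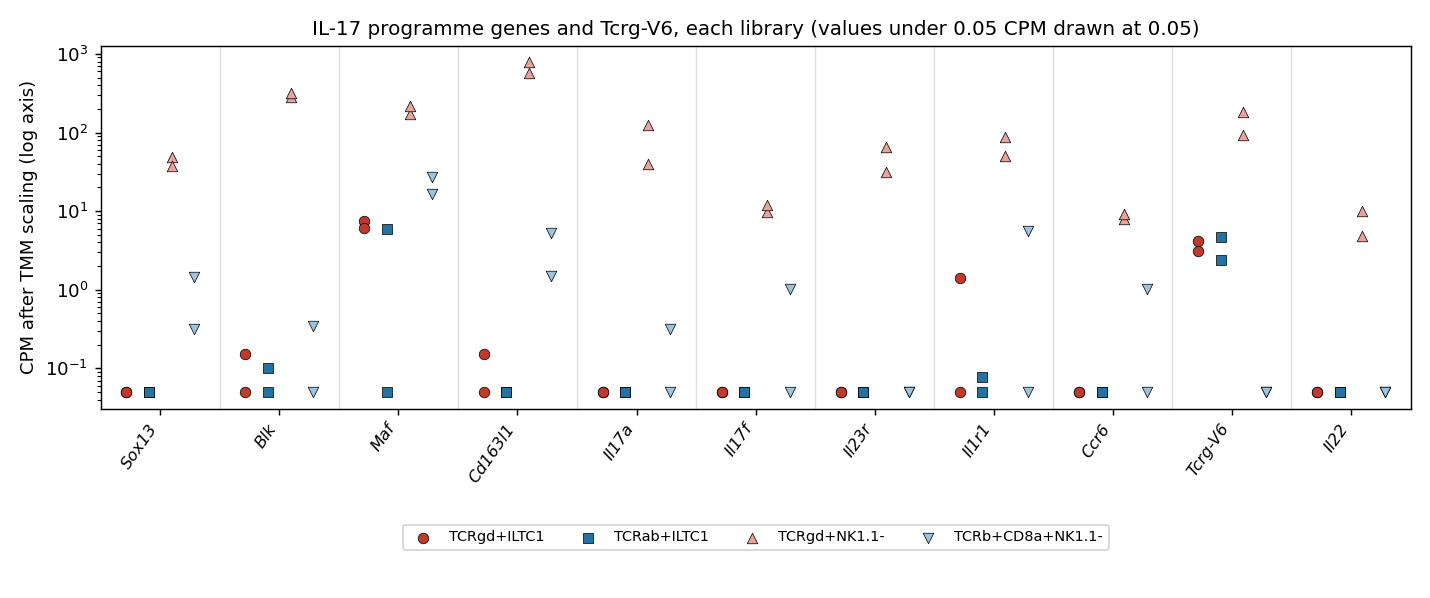
Genes of the interleukin 17 programme and Tcrg-V6 on the horizontal axis and CPM after TMM scaling on a logarithmic vertical axis, with 1 point per library for 4 populations; values under 0.05 CPM are drawn at 0.05. The TCRgd+NK1.1- libraries (pale triangles) are the highest for each gene, and both ILTC1 populations lie near or at 0 for Sox13, Blk, Il17a and Il23r.

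The interleukin 17 programme, a common feature of tissue gamma-delta T cells, was not seen on either side. Il17a, Il17f, Il23r, Ccr6, Il22 and Sox13, a factor gene of that lineage, had 0 counts in all 4 ILTC1 libraries, whose floor of 3 counts corresponds to 0.146 to 0.235 CPM before TMM scaling. In TCRgd+NK1.1- cells Il17a was at 124 and 40.4 CPM, Il23r at 65.1 and 31.7 CPM and Sox13 at 49.2 and 37.6 CPM. Blk, a kinase gene of that lineage, had 2 and 0 counts in each ILTC1 population, against 283 and 320 CPM in TCRgd+NK1.1- cells. The 21 genes of this list summed to 443 and 290 CPM in TCRgd+ILTC1 cells and to 367 and 296 CPM in TCRab+ILTC1 cells, against 3141 and 3379 CPM in TCRgd+NK1.1- cells and 630 and 623 CPM in TCRb+CD8a+NK1.1- cells. For genes at 0 on both sides of ILTC1 the difference between the contrasts could not be estimated.

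**Figure D5:**
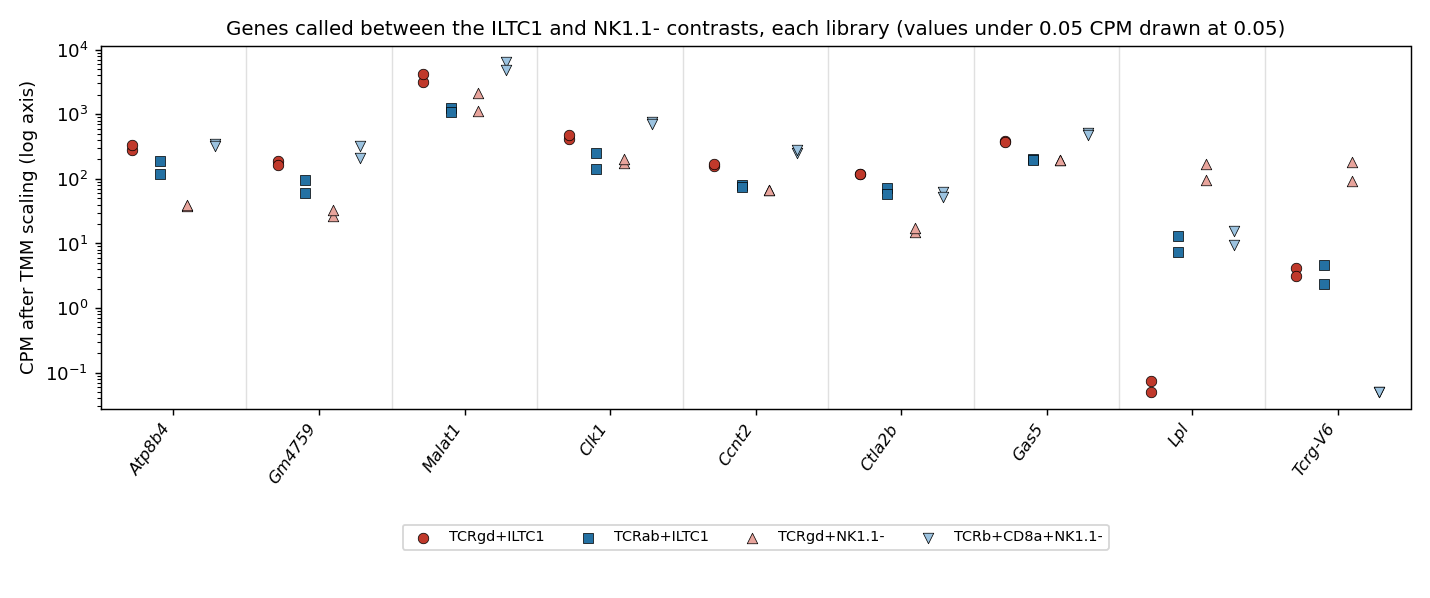
The 9 genes called when the gamma-delta over alpha-beta difference was compared between ILTC1 and NK1.1- cells, with CPM after TMM scaling on a logarithmic vertical axis and 1 point per library; values under 0.05 CPM are drawn at 0.05. For the 7 genes at the left, TCRgd+ILTC1 libraries (red circles) lie above TCRab+ILTC1 libraries (blue squares), while TCRgd+NK1.1- libraries (pale triangles) lie below TCRb+CD8a+NK1.1- libraries (pale inverted triangles).

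Whether the receptor type went with the same differences in ILTC1 cells as in NK1.1- cells was asked by testing the difference between both contrasts. Of 16828 genes, 9 were called (0.0535%), 7 with a higher and 2 with a lower contrast in ILTC1 cells. The NK1.1- contrast alone, TCRgd+NK1.1- over TCRb+CD8a+NK1.1-, had 13 calls (0.0773%). The 7 had a positive contrast in ILTC1 cells and a negative one in NK1.1- cells. They were Malat1 and Gas5, a pair of nuclear and growth-arrest noncoding RNAs, the splicing kinase gene Clk1, the transcription elongation gene Ccnt2, the lipid flippase gene Atp8b4, the protease inhibitor gene Ctla2b and the predicted gene Gm4759. Gas5 and Ctla2b fall outside the rule for named genes and were added after their values were seen.

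Malat1 was at 3141 and 4158 CPM in TCRgd+ILTC1 cells and at 1245 and 1096 CPM in TCRab+ILTC1 cells, and at 1105 and 2146 CPM in TCRgd+NK1.1- cells and at 6343 and 4868 CPM in TCRb+CD8a+NK1.1- cells. The difference of its contrasts was 3.43 ± 0.44 log2 units (edgeR adjusted p = 0.0410). Ccnt2 was at 160 and 172 CPM in TCRgd+ILTC1 cells and at 81.3 and 74.3 CPM in TCRab+ILTC1 cells, and at 66.3 and 66.5 CPM in TCRgd+NK1.1- cells and at 251 and 276 CPM in TCRb+CD8a+NK1.1- cells. Its contrasts differed by 3.08 ± 0.31 log2 units (edgeR adjusted p = 0.0183). Both genes were higher with the gamma-delta receptor in ILTC1 cells and lower with it in NK1.1- cells, with no overlap inside either cell kind.

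Atp8b4 was at 284 and 337 CPM in TCRgd+ILTC1 cells and at 187 and 119 CPM in TCRab+ILTC1 cells, and at 37.7 and 39.7 CPM in TCRgd+NK1.1- cells and at 347 and 318 CPM in TCRb+CD8a+NK1.1- cells. Its contrasts differed by 4.12 ± 0.38 log2 units (edgeR adjusted p = 0.0156). Gas5 was at 384 and 376 CPM in TCRgd+ILTC1 cells and at 200 and 198 CPM in TCRab+ILTC1 cells, and at 197 and 196 CPM in TCRgd+NK1.1- cells and at 510 and 474 CPM in TCRb+CD8a+NK1.1- cells (difference 2.26 ± 0.28). Gas5 and Ccnt2 had the closest replicates of the 7. Clk1 (3.10 ± 0.40), Ctla2b (2.70 ± 0.36) and Gm4759 (4.32 ± 0.52) followed the same order of groups.

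Lpl and Tcrg-V6 were the lower calls. Lpl, the lipoprotein lipase gene of macrophages and adipose tissue, had 1 and 0 counts in TCRgd+ILTC1 cells and 144 and 170 counts in TCRab+ILTC1 cells, and was at 95.6 and 168 CPM in TCRgd+NK1.1- cells and at 9.297 and 15.9 CPM in TCRb+CD8a+NK1.1- cells. Tcrg-V6 was near equal in ILTC1 cells, as given above, and was at 181 and 92.7 CPM in TCRgd+NK1.1- cells and at 0 in both TCRb+CD8a+NK1.1- libraries, so that its fitted size depends on the prior count and is no measure of the fold.

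The 9 calls depended on single libraries: 0 genes were called without either TCRgd+ILTC1 library or without either TCRb+CD8a+NK1.1- library. Without TCRab+ILTC1 replicate 1 or 2 there were 291 and 2 calls, and without TCRgd+NK1.1- replicate 1 or 2 there were 229 and 24. Beside these calls, the TCRgd+NK1.1- libraries held 20610 and 51490 CPM of the 22 myeloid markers, against 2892 and 2911 CPM in TCRb+CD8a+NK1.1- cells, and the part of those cells in the calls was not tested.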

How the data were processed

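FACS-sorted tumour lymphocytes gave RNA-seq libraries amplified with SMARTer, per the labels' protocols. The submitters' processing notes name BWA 0.7.5a, HTSeq and Picard as tools and mm9 and NCBIM37 as builds; strand use in counting is not given there. The authors deposited 1 table of raw counts with Ensembl identifiers, 37620 entries by 22 libraries, and 32897 entries were given a symbol from a gene table (99.02% of counts). Depth is in the report, and a floor of 3 counts stands for a value of 0; such limits cover counting error only. Each value of CPM was computed from the counts after TMM scaling. The comparison used edgeR 4.0.16 (R 4.3.3): filterByExpr, then the quasi-likelihood F test on 12 libraries with 1 mean per population, and Benjamini-Hochberg adjustment over all 16828 tested genes at 0.05. The difference between contrasts was TCRgd+ILTC1 over TCRab+ILTC1 minus TCRgd+NK1.1- over TCRb+CD8a+NK1.1-. Alternatives were DESeq2 1.42.0, limma-voom 3.58.1, 2 other scalings, no filter, other sets of libraries, a replicate block, receptor segments left out, and each replicate left out. The code was tested on simulated data.

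Named were 37 key genes (36 measured), the 10 largest uncalled differences each way with 20 CPM or more, no overlap and an unadjusted p under 0.05, up to 3 members each way of each of 26 lists, and up to 5 calls each way of the difference between contrasts; Lpl and Tcrg-V6 come from the last. Some genes that this rule names are not reported here. Other list members were added after their values were seen. The comparison, its members and its lists were chosen with earlier results of these data known. ILC1l titles occur in 2 spellings and were treated as 1 population. No pair of libraries had identical counts.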

Additional observations from a re-analysis of the deposited data

Results flagged for a closer look

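The 9 genes below are those whose gamma-delta over alpha-beta contrast differed between ILTC1 and NK1.1- cells by the test of that difference itself (edgeR's quasi-likelihood test, adjusted p under 0.05). The difference was 4.32 log2 units for Gm4759, 4.12 for Atp8b4, 3.43 for Malat1, 3.10 for Clk1, 3.08 for Ccnt2, 2.70 for Ctla2b and 2.26 for Gas5, with the higher contrast in ILTC1 cells. It was -11.13 for Lpl and -13.77 for Tcrg-V6, values that depend on the prior count because a library group stood at or near 0. The TCRgd+NK1.1- libraries in this test carried the largest myeloid marker sums of the 12 libraries, 20610 and 51490 CPM, and the part of this in the 9 differences was not tested.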

How the results depend on the processing

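The ILTC1 comparison had 0 calls in edgeR, 65 with DESeq2, 154 without the filter on low counts and 0 to 297 when 1 ILTC1 library was left out, with 0 under each other alternative. The difference between contrasts had 9 calls in edgeR, 348 with DESeq2, 479 without the filter, 31 with all 22 libraries, 6 with the replicate block and 6 with limma-voom, and 0 to 291 when 1 library was left out. The NK1.1- contrast had 13 calls, and 591 with DESeq2, 6 with DESeq2 size factors, 39 with upper quartile scaling, 621 without the filter, 151 with all 22 libraries, 4 without receptor segments, 212 with limma-voom and 2 to 449 when 1 library was left out. The labels do not say what libraries with one replicate number share, so the numbers were not taken as pairing. There are 2 such pairs between the ILTC1 populations, whose replicate differences had a correlation of 0.123 across genes. That was the highest value among the pairs of the 6 populations, and the lowest was -0.041. Eomes, Klra8 and Il2rb went with the replicate number in both ILTC1 populations, and Itga1 did not. The replicate block left the ILTC1 comparison at 0 calls. Limma-voom moved the median log2 fold change of all genes by 0.12. Of 76 genes followed over 14 alternatives, 28 were called in at least 1 of them, and 16 changed sign in at least 1. Among those 16, Itga2 was at -0.23 and Syk at 0.16 with limma-voom and Tcrg-V6 at -0.03 with the block. With 1 ILTC1 replicate left out, the log2 fold changes ranged over -5.97 to 6.09 for Cd4, -0.05 to 0.23 for Itga1, -1.5 to 1.04 for Itga2, -0.85 to 0.03 for Itgae, -0.05 to 0.5 for Gzma, -9.07 to 9.43 for Eomes, -0.24 to 0.12 for Zfp683, -0.71 to 0.14 for Il2rb, -0.07 to 0.06 for Tyrobp, -1.09 to 1.07 for Syk, -2.84 to 3.1 for Blk, -0.12 to 2.15 for Cd28, -0.54 to 0.52 for Xcl1, -0.24 to 0.08 for Cxcr6, -0.31 to 2.29 for Ccr2 and -0.37 to 0.62 for Tcrg-V6. Leaving out 1 ILTC1 library moved the fold change of 29 of the 76 genes by over 1.5 times. The cause was not tested. With 2 libraries a population, the 95% interval lay within 1 log2 unit of 0 for 1689 of 7247 genes with 20 CPM or more.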

Other observations

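Glycolysis genes were more often lower than higher in TCRgd+ILTC1 cells: of 18, 7 had both TCRgd+ILTC1 libraries below both TCRab+ILTC1 libraries and 1 had both above, beside 12.1% and 14.8% of all genes, with a median log2 fold change of -0.19 and no gene called. Cell cycle genes had the other order, with 7 of 20 above and 1 below and a median of 0.1, again with no gene called. Their sums were close, at 5266 and 5740 CPM in TCRgd+ILTC1 cells and at 5756 and 6085 CPM in TCRab+ILTC1 cells for glycolysis, and at 2360 and 2192 CPM in TCRgd+ILTC1 cells and at 2016 and 2162 CPM in TCRab+ILTC1 cells for the cell cycle. The interferon response list had 3 of 21 genes above and 0 below, and the inhibitory receptor list had 2 of 18 above and 1 below.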
